A study of Homo sapiens with 4 samples.

Results

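The 10 genes CD274, PDCD1LG2, CD276, VTCN1, HHLA2, NECTIN2, PVR, CD47, LGALS9 and CD58 encode proteins that tumour cells show to, or in the case of galectin-9 also release towards, immune cells. They were taken by gene symbol from 61228 features in the count files, and all 10 symbols were present. Their RNA was sequenced in bulk from H1792, an established human lung adenocarcinoma line labelled as WT in genotype, after 96 h with the solvent DMSO or with ACBI1. ACBI1 is a PROTAC, a molecule that brings its targets to the VHL ubiquitin ligase for degradation. Its targets are the SWI/SNF proteins SMARCA2 and SMARCA4, motors that move nucleosomes, and the accessory protein PBRM1. The dose is written in the labels as 1 mM. Each group held 2 libraries from the same line and nothing else was given to either group, as far as the labels say. They number the libraries as replicates without saying whether these were separate cultures, so p-values measure the spread between these libraries, which may be technical.

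Checkpoint ligands bind receptors on T cells, natural killer cells or macrophages and change how strongly those cells respond. PD-L1 (CD274) and PD-L2 (PDCD1LG2) engage PD-1 and dampen T cells, the nectin-type ligands PVR and NECTIN2 are shared between the inhibitory receptor TIGIT and the activating receptor CD226, and CD47 engages SIRPA on macrophages and blocks phagocytosis. CD58 engages CD2 and supports T cell activation. In tumour cells CD274 is best known as a gene induced by interferon-gamma through JAK-STAT signalling and the transcription factor IRF1.

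Gene counts summed to between 64281850 and 86010100 per library. Leukocyte markers were low, with 5 of 15 at 0 in every library and none called. Their summed level was 2.22 and 1.99 CPM with DMSO and 1.32 and 0.808 CPM with ACBI1. PTPRC (CD45) had at most 2 counts per library, and CD3D, CD3E and CD3G had 0. The 4 that passed the filter on low counts were CD8A, CD79A, CD14 and ITGAM. CD8A had 137 and 42 counts with DMSO and 48 and 7 with ACBI1 (log2 change -1.78, edgeR adjusted p 0.186). ITGAM had a positive log2 change (0.79, edgeR adjusted p 0.493). Of the epithelial markers, KRT7, KRT8 and KRT18 were abundant, EPCAM was at 4.08 ± 1.84 CPM (counts per 1000000 scaled counts, SD, n = 2) with DMSO, and CDH1 (E-cadherin) had only 4 to 16 counts per library. Markers of other cell types and of epithelium moved with the treatment. The 6 epithelial markers summed to 982 and 1035 CPM in the DMSO libraries and to 323 and 202 CPM with ACBI1, with 4 of 5 tested called lower. Keratins made up most of these sums. KRT7 was the largest part except in ACBI1 replicate 2, where KRT18 was at 75.1, KRT8 at 60.9 and KRT7 at 60.3 CPM. EPCAM differed in the other direction, without a call (log2 change 1.32, adjusted p 0.179), and its ACBI1 level was 10.2 ± 7.58 CPM (SD, n = 2). The summed level of the 5 fibroblast markers was 356 and 790 CPM in the DMSO libraries against 71.7 and 223 CPM with ACBI1. Most of it was COL1A1, at 324 and 693 CPM against 62.3 and 210 CPM, which was not called (edgeR adjusted p 0.0860). The 3 called lower, beside 10.6% of all tested genes, were PDGFRA, DCN and LUM. PDGFRB was not called. The sum of the 4 endothelial markers was 12.6 and 48.5 CPM against 0.0112 and 0.0610 CPM. It was almost all PECAM1, which was called lower, as was VWF, whereas CDH5 had at most 4 counts and CLDN5 at most 2 in any library. Of the genes targeted by ACBI1, SMARCA4 had a log2 change of 0.70 just outside the threshold (edgeR adjusted p 0.0583). It was called higher by DESeq2 (adjusted p 0.0149) and limma-voom (0.0491), with upper-quartile (0.0441) or library size scaling (0.0344), with either other filter (0.00834 and 0.0485) and without DMSO replicate 1 (0.0186). For SMARCA2 (log2 change -0.40, adjusted p 0.163) and PBRM1 (log2 change 0.10, adjusted p 0.734) there was no call.

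With ACBI1, transcripts of 5 checkpoint ligands fell and none rose. Of the 10 genes, 8 had enough counts to be tested, and PDCD1LG2, LGALS9, NECTIN2, CD58 and CD47 were called lower by edgeR's quasi-likelihood test (Benjamini-Hochberg adjusted p under 0.05 over all 19159 tested genes). CD274, PVR and CD276 had negative log2 changes that did not pass the threshold. Over all tested genes 17.4% were called, 10.6% lower and 6.75% higher, against 62.5% of the 8 ligand genes, all lower. All 8 log2 changes were below 0, as were 49.6% over all tested genes. The median of the 8 was -1.19, with a range from -3.51 to -0.49, beside a median of 0.01 over all tested genes. In 7 of the 8, both ACBI1 libraries lay below both DMSO libraries, an order found in 32.2% of all tested genes (63.2% did not overlap in either direction). Without ACBI1 replicate 1 the number called was 3. In bulk RNA, fewer cells that express a gene and less RNA per cell cannot be told apart. The fibroblast and endothelial marker sums were highest in DMSO replicate 2, and DMSO replicate 1 also stood above both ACBI1 libraries in them. Their part in the ligand values was not tested. Without DMSO replicate 2 the log2 changes were -3.65 for PDCD1LG2, -2.12 for LGALS9, -1.45 for NECTIN2 and -1.33 for CD58, each still called, and -0.73 for CD47, which was not called (adjusted p 0.0559).

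**Figure D1:**
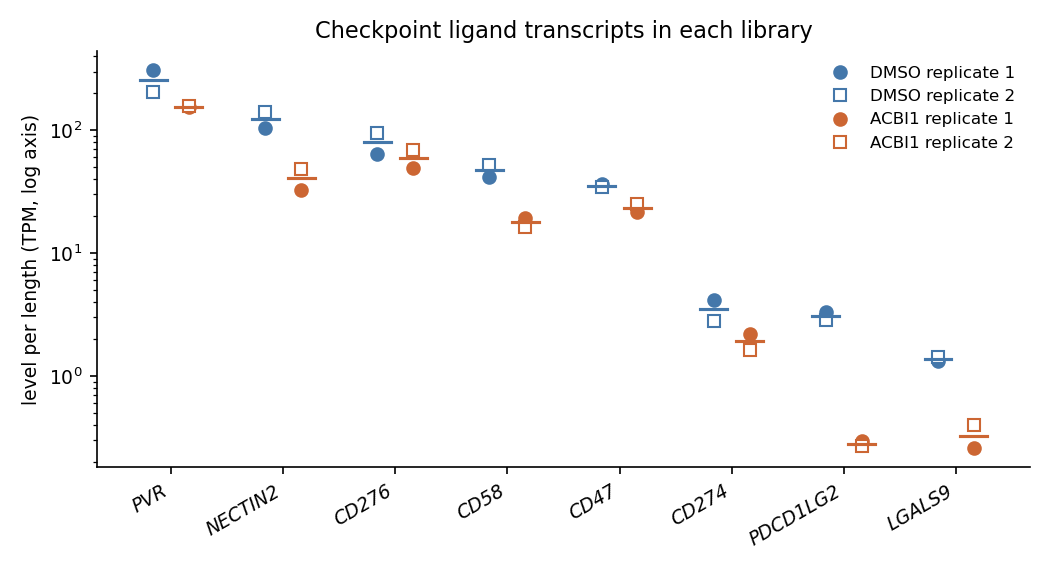
Level per length (TPM, log axis) of the 8 tested ligand genes in each of the 4 libraries, ordered by the DMSO mean, with circles for replicate 1, open squares for replicate 2 and short lines for group means. PVR was highest in both groups, at means of 258 and 155 TPM, and PDCD1LG2 shows the widest gap between groups, from 3.09 to 0.282 TPM.

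Levels were compared between genes per length, as TPM (transcripts per 1000000, from counts divided by the exonic length in GENCODE 29). With DMSO, PVR came first at 258 ± 74.9 TPM (SD, n = 2). NECTIN2 followed at 122 ± 26.6, CD276 at 79.7 ± 21.6, CD58 at 47.1 ± 7.51 and CD47 at 35.4 ± 1.11 TPM. CD274 at 3.48 ± 0.922, PDCD1LG2 at 3.09 ± 0.339 and LGALS9 at 1.37 ± 0.0794 TPM formed a much lower tier. The libraries of CD274 and PDCD1LG2 overlapped in this order, and each other pair of neighbours among the 8 was apart in both DMSO libraries. With ACBI1, PVR still came first at 155 ± 1.19 TPM. CD276, at 58.9 ± 13.8 TPM, now stood above NECTIN2, at 40.8 ± 11.2 TPM, in both libraries, and CD47, at 23.4 ± 2.52 TPM, above CD58, at 17.8 ± 2.22 TPM. PDCD1LG2 (0.282 ± 0.0166 TPM) and LGALS9 (0.327 ± 0.0976 TPM) overlapped at the bottom.

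The genes of the PD-1 ligands lie side by side on chromosome 9 of GRCh38, CD274 at 5450503 to 5470566 and PDCD1LG2 at 5510570 to 5571254, both on the plus strand and 40.0 kb apart. No exon of another annotated gene overlaps either. PDCD1LG2 was at 2.20 and 1.78 CPM in DMSO replicates 1 and 2 and at 0.179 and 0.168 CPM in ACBI1 replicates 1 and 2. These values rested on 179 and 128 counts against 16 and 11, and the groups were far apart relative to the spread within them. The log2 change was -3.51 (SE 0.40, edgeR adjusted p 0.00561), an 11.4-fold lower level, and only 2.29% of tested genes had a lower log2 change. CD274 was at 4.73 and 3.06 CPM with DMSO and at 2.33 and 1.75 CPM with ACBI1, on 385, 220, 209 and 115 counts. Both ACBI1 libraries lay below both DMSO libraries, but the DMSO libraries differed from each other by more than the lower of them differed from ACBI1 replicate 1. Its log2 change of -0.93 had a 95% interval from -1.81 to -0.05 and an adjusted p of 0.131, which is not a call, and it was -0.57 without DMSO replicate 1.

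Within each library, the ratio of PDCD1LG2 to CD274 counts does not depend on library scaling. It was 0.465 and 0.582 in the DMSO libraries and 0.0766 and 0.0957 in the ACBI1 libraries. PD-L2 counts were thus a smaller fraction of PD-L1 counts in both ACBI1 libraries than in either DMSO library. With 2 libraries against 2, the ratio has no test of its own. The nearest tested protein-coding genes on either side of the pair, looked up after the values of the pair were known, were PLGRKT, with a log2 change of 0.77 (adjusted p 0.151), and RIC1, with -0.28 (adjusted p 0.367), and neither was called.

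The 3 genes whose profile over the 4 libraries lay closest to that of CD274, by Euclidean distance of centred log2(CPM + 0.5) among the 11160 tested genes that averaged 5 CPM or more, were PLCXD2 (distance 0.0824), NT5E (0.0871) and WIPF1 (0.0896). NT5E encodes the ecto-enzyme CD73, which makes extracellular adenosine. Its level was 222 and 144 CPM with DMSO and 112 and 95.7 CPM with ACBI1. The likeness to CD274 is what chose these genes. None of the 3 was called by edgeR (adjusted p 0.148, 0.0683 and 0.0545), whereas DESeq2 called NT5E (adjusted p 0.0202) and WIPF1 (adjusted p 0.0126) lower.

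Promoter sequences are shown for CD274, the member best known to respond to interferon, and for 3 of the genes called lower, LGALS9, NECTIN2 and CD58, to set their starts side by side. They come from RefSeq on GRCh38.p14 and cover 300 bases, 250 before and 50 from the annotated start, 5′ to 3′ on the gene's strand. Capitals mark matches, on either strand, to the core of the interferon-stimulated response element (GAAA, any 2 bases, GAAA), the type of site that IRF factors bind, to TTCNNNGAA (a STAT element) and TGANTCA (an AP-1 site).
CD274, chr9:5450292-5450591, plus strand: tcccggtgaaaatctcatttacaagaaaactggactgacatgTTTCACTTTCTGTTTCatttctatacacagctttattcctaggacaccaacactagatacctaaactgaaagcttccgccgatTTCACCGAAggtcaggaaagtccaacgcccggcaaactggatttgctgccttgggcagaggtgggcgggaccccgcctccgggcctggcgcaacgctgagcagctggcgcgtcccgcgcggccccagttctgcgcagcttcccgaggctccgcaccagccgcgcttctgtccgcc
LGALS9, chr17:27630938-27631237, plus strand: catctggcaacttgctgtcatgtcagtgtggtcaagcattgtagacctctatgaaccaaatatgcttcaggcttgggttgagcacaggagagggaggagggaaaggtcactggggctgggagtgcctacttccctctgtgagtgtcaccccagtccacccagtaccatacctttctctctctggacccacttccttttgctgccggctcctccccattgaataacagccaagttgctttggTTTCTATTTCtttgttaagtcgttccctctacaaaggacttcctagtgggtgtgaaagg
NECTIN2, chr19:44846047-44846346, plus strand: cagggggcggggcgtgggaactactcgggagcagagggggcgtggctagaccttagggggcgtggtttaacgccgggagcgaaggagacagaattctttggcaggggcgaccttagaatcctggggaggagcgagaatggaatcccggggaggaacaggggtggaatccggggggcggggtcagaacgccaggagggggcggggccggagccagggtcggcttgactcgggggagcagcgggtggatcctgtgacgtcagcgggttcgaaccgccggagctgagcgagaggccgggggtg
CD58, chr1:116570977-116571276, minus strand: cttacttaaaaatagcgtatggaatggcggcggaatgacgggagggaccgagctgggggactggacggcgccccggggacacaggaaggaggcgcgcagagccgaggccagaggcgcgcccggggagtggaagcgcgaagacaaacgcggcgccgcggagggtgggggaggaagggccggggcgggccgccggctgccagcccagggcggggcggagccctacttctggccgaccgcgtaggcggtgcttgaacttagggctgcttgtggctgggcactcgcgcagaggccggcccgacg

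In the CD274 window the response element core matched at 2 places, starting 208 and 202 bases before the start site, so that the matches overlap in 1 run, and the STAT element matched 125 bases before the start. The LGALS9 window held 1 response element core, 9 bases before the start site that RefSeq gives, which lies inside the span that GENCODE gives for the gene. The NECTIN2 and CD58 windows shown, and that of CD47, held none of the 3 motifs, which says only that these letters are not in these windows. RefSeq windows were found for 9 of the 10 genes, some with several, and none for PDCD1LG2, so its start was not searched. Of these 12 windows, 3 held a response element core (1 each of CD274, LGALS9 and HHLA2), 1 a STAT element (CD274) and 2 an AP-1 site (VTCN1 and HHLA2). Among 35116 promoter windows of the same length, 3.57% held the response element core, 7.66% the STAT element and 7.71% the AP-1 site. A loose NF-kB pattern, GGG and CC with any 5 bases between them, was found in 9 of the 12 windows, in 58.7% of all windows and in 70.5% of those of tested genes. LGALS9, called lower, and CD274, not called, share the response element core, while NECTIN2, CD58 and CD47 were called lower with no such match.

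CD276, VTCN1 and HHLA2 encode the B7 relatives B7-H3, B7-H4 and B7-H7, which are found on many tumours and have inhibitory roles towards T cells. CD276 was at 99.6 and 139 CPM with DMSO and at 70.1 and 99.9 CPM with ACBI1. It was the only tested ligand gene whose groups overlapped, since ACBI1 replicate 2 lay just above DMSO replicate 1. Its log2 change of -0.49 had a 95% interval from -1.09 to 0.12 (adjusted p 0.223). Leaving out ACBI1 replicate 1 made it -0.25 and leaving out DMSO replicate 2 made it -0.23, while it was -0.78 without ACBI1 replicate 2. The second DMSO library and the first ACBI1 library each held 1 count of VTCN1, and the second DMSO library 1 count of HHLA2, with 0 in all others. Both were under the filter on low counts and had no test. A count of 0 allows a level of up to 0.0335 to 0.0458 CPM, which is 3 counts.

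PVR and NECTIN2, the ligands of CD226 and TIGIT, lie 183 kb apart on chromosome 19, PVR at 44643798 to 44663583 and NECTIN2 at 44846175 to 44889228. NECTIN2 was at 108 and 140 CPM with DMSO and at 31.7 and 48.0 CPM with ACBI1, on 2842 to 10043 counts per library. The groups were apart by more than the spread within either, and the log2 change was -1.64 (SE 0.25, edgeR adjusted p 0.0116), a 3.11-fold lower level. PVR was at 305 and 190 CPM with DMSO and at 140 and 144 CPM with ACBI1. Both ACBI1 libraries lay below both DMSO libraries, yet DMSO replicate 1 stood well above DMSO replicate 2. The log2 change of -0.80 (95% interval -1.41 to -0.19) did not pass (adjusted p 0.0772). It was -0.41 without DMSO replicate 1 and -1.10, a call (adjusted p 0.00500), without DMSO replicate 2. DESeq2 called PVR lower (adjusted p 0.0263), as did edgeR when every gene with a count was kept (adjusted p 0.00118).

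The count ratio of NECTIN2 to PVR was 0.355 and 0.735 in the DMSO libraries and 0.227 and 0.332 in the ACBI1 libraries. The groups did not overlap, but DMSO replicate 1 lay close to ACBI1 replicate 2, and the ratio was not tested. Exons of NECTIN2 share 3.42% of their length with another annotated gene, on the opposite strand, and those of PVR share 3.44%, on the same strand. The gene that shares exonic sequence with PVR is CEACAM19, with 990 and 1023 counts against 266 and 279, itself called lower (adjusted p 0.0111). The nearest tested protein-coding neighbours of NECTIN2, looked up after its values were known, went both ways. BCAM, on one side, was called lower (log2 change -1.49, adjusted p 0.00831) and TOMM40, on the other, was called higher (log2 change 0.97, adjusted p 0.0279), with no call when DMSO replicate 2 or either ACBI1 library was left out. Over the 17 such neighbours of the 10 ligand genes, 3 were called lower and 1 higher, beside 10.6% and 6.75% of all tested genes. Their median log2 change was -0.28.

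**Figure D2:**
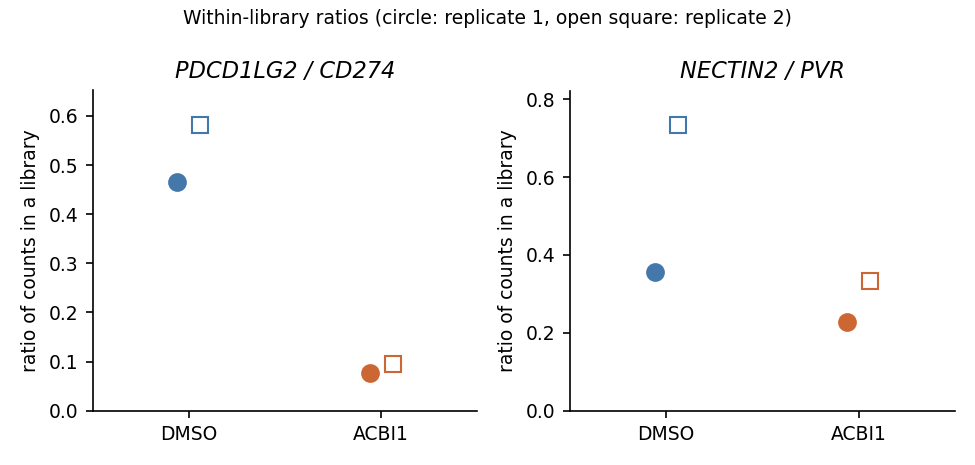
Ratio of counts in each library for PDCD1LG2 over CD274 (left) and NECTIN2 over PVR (right), linear axes from 0, with circles for replicate 1 and open squares for replicate 2. The PD-L2 to PD-L1 ratio was at 0.465 and 0.582 with DMSO and under 0.1 in both ACBI1 libraries, and the DMSO values of NECTIN2 over PVR were far apart.

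CD47, the signal against phagocytosis, is transcribed from the minus strand of chromosome 3, at 108043094 to 108091862. It was at 83.0 and 75.1 CPM with DMSO and at 45.9 and 54.5 CPM with ACBI1, on 3574 to 6758 counts. The groups did not overlap, and the difference was larger than the spread within either group. CD47 was called lower with the smallest log2 change among the 5 called ligand genes, -0.65 (SE 0.17, edgeR adjusted p 0.0452), a 1.57-fold lower level. The call was close to the threshold. It was lost under scaling by library size only (log2 change -0.57, adjusted p 0.0546) and when any 1 library was left out (adjusted p 0.0559 to 0.263), with log2 changes from -0.79 to -0.53.

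LGALS9 encodes galectin-9, a lectin that binds TIM-3 and other glycoproteins on T cells, and lies on chromosome 17 at 27629798 to 27649560. It was at 2.1 and 2.15 CPM with DMSO and at 0.380 and 0.595 CPM with ACBI1, from 171 and 155 counts against 34 and 39. The DMSO libraries were almost equal and the ACBI1 libraries were both far below them. The log2 change was -2.13 (SE 0.39, edgeR adjusted p 0.0189), a 4.38-fold lower level, and became -1.83 with no call (adjusted p 0.0810) without ACBI1 replicate 1. The near-identical copies LGALS9B and LGALS9C had 0 counts in each library. Reads with several alignments were listed apart and given to no gene, so the level of LGALS9 is uncertain to that extent, and 5.15% of its exonic length is shared with another annotated gene.

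CD58, the adhesion ligand of CD2, lies on the minus strand of chromosome 1 at 116514535 to 116571039. It was at 20.8 and 24.7 CPM with DMSO and at 8.91 and 7.63 CPM with ACBI1, on 1694 and 1774 counts against 798 and 500. Both ACBI1 libraries lay well under both DMSO libraries. The log2 change was -1.46 (SE 0.21, edgeR adjusted p 0.00991), a 2.75-fold lower level, and it was called with each library left out in turn (-1.57 to -1.33). PDCD1LG2 and NECTIN2 also stayed called in these 4 fits. CD58, which supports T cell activation, was therefore called lower together with ligands of inhibitory receptors. Among these, NECTIN2 is also a ligand of the activating receptor CD226.

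**Figure D3:**
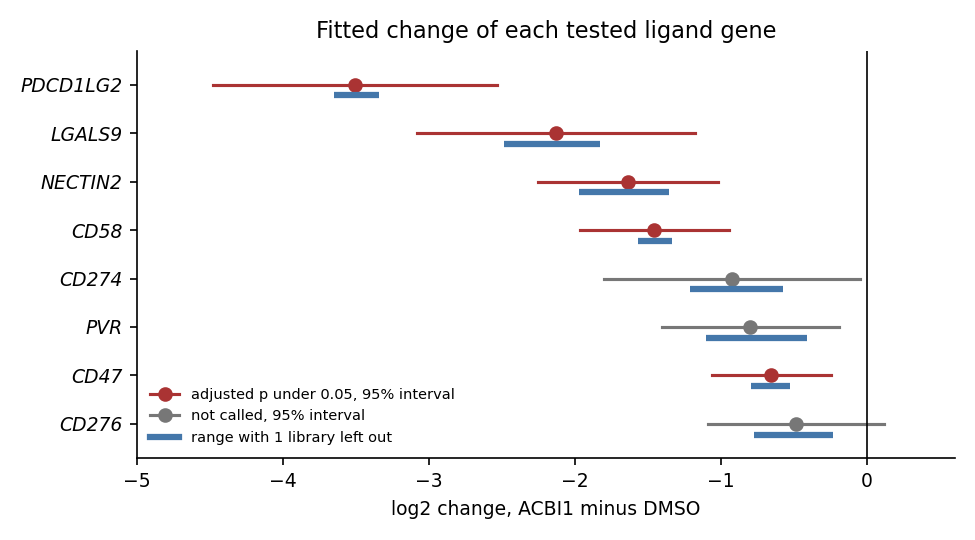
Fitted log2 change (ACBI1 minus DMSO) of each tested ligand gene with its 95% interval, red where called and grey where not, and below it in blue the range when 1 of the 4 libraries is left out. All 8 points lie below 0, from -3.51 for PDCD1LG2 to -0.49 for CD276, whose interval crosses 0.

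Transcripts of most receptors that these ligands bind were nearly absent. Of 11 receptor genes, 3 passed the filter and the other 8 had at most 7 counts in any library. PDCD1 (PD-1) had 1 count in each of 2 libraries and CD2 had 0 in each. CD226 had 53 and 21 counts with DMSO and 52 and 42 with ACBI1, and CD96 had 8 to 12 counts per library. Neither was called (edgeR adjusted p 0.657 and 0.552). Far above the others stood SIRPA, the receptor for CD47, which the tumour cells transcribed themselves. It fell from 69.2 ± 8.23 to 33.9 ± 10.5 CPM (SD, n = 2), with a fitted log2 change of -1.03 (adjusted p 0.0379), which was -0.73 and not called without ACBI1 replicate 1.

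Other genes of the B7 and butyrophilin family were tested in 9 of 15 cases. Of these, 5 were called lower (ICOSLG, VSIR, BTN3A3, BTN3A1 and BTN2A1) and 1 higher, beside 10.6% and 6.75% of all tested genes. The median log2 change was -0.97, beside 0.01 over all tested genes. ICOSLG, the ligand of the costimulatory receptor ICOS, fell from 87.7 ± 31.6 to 1.71 ± 0.848 CPM (SD, n = 2), and its log2 change was -5.66 (adjusted p 0.00243). For VSIR, which encodes the checkpoint protein VISTA, the log2 change was -2.73 (adjusted p 0.0275). It was -1.79 when DMSO replicate 2 was left out, and VSIR lost its call without either ACBI1 library. BTN3A3, one of 3 similar butyrophilin genes between which reads can be split, fell by 2.05 on the log2 scale (adjusted p 0.00431). NCR3LG1, the ligand B7-H6 of the natural killer receptor NKp30, rose from 43.2 ± 21.9 to 118 ± 6.55 CPM (SD, n = 2), and its log2 change was 1.45 (adjusted p 0.0382), with no call when either ACBI1 library was left out. BTN3A1 lost its call without ACBI1 replicate 1, and BTN2A1 without either ACBI1 library. The 6 calls of this family became 2 without ACBI1 replicate 1 and 3 without ACBI1 replicate 2. CD80 and CD86 had at most 2 counts in any library.

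Among the relatives of PVR and NECTIN2, 1 of 6 tested nectin and nectin-like genes was called, a share close to the 17.4% of all tested genes. That gene was CADM4 (log2 change -1.55, adjusted p 0.0321), which lost its call when DMSO replicate 2 or either ACBI1 library was left out. NECTIN1 and NECTIN3, fitted in the same list, were at 54.0 ± 2.29 and 33.1 ± 1.23 CPM with DMSO and at 43.8 ± 17.4 and 28.6 ± 6.53 CPM with ACBI1 (SD, n = 2), and were not called (adjusted p 0.494 and 0.508). Whether NECTIN2 differed from them in its response was not tested.

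Of 12 further genes grouped here as inhibitory surface or secreted ligands, not all of which have that role alone, 9 were tested. Among these, 4 were called, all lower, beside 10.6% called lower over all tested genes. The median log2 change was -0.97, beside 0.01 over all tested genes. TNFRSF14 (HVEM), the ligand of BTLA, fell from 15.7 ± 6.03 to 0.611 ± 0.0422 CPM (SD, n = 2), and its log2 change was -4.69 (adjusted p 0.00252). The galectin genes LGALS1 and LGALS3 had log2 changes of -2.46 (adjusted p 0.00349) and -1.39 (adjusted p 0.00753). HLA-E, the ligand of the inhibitory receptor NKG2A, had one of -1.22 (adjusted p 0.0102), and reads of HLA genes can be split between similar genes. HMGB1, a nuclear protein that cells can release, was at 197 ± 25.3 and 209 ± 1.54 CPM (SD, n = 2) and was not called (adjusted p 0.775).

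Genes of interferon-gamma signalling towards CD274 were all tested. Of these 13, 4 were called lower and none higher, beside 10.6% and 6.75% of all tested genes. The median log2 change was -0.66, beside 0.01 over all tested genes. IRF1, the transcription factor that acts on the CD274 promoter, was at 172 and 124 CPM with DMSO and at 34.1 and 28.7 CPM with ACBI1. Both ACBI1 libraries lay far below both DMSO libraries, and the log2 change was -2.23 (SE 0.22, adjusted p 0.00396). The receptor chain gene IFNGR1 had a log2 change of -1.18 (adjusted p 0.00868), STAT2 one of -1.78 (adjusted p 0.0164) and SOCS1, a feedback inhibitor, one of -2.53 (adjusted p 0.0230), or -1.78 when DMSO replicate 2 was absent. Leaving out ACBI1 replicate 1 ended the call of IFNGR1, and leaving out either ACBI1 library ended that of SOCS1. JAK2, a kinase of the receptor complex, was at 6.29 ± 0.639 and 5.17 ± 1.11 CPM (SD, n = 2) and was not called (adjusted p 0.533).

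Among 10 other transcriptional regulators of CD274, 4 were called lower and none higher, beside 10.6% and 6.75% of all tested genes. HIF1A, the oxygen-regulated factor, fell by 1.99 on the log2 scale (adjusted p 0.00636). JUN (-1.70, adjusted p 0.0473), BCL3 (-0.99, adjusted p 0.0477) and NFKBIA (-0.90, adjusted p 0.0221) were closer to the threshold. Each of these 3 lost its call when ACBI1 replicate 1 was left out. BCL3 and NFKBIA also lost it without ACBI1 replicate 2, and BCL3 without DMSO replicate 2, at -0.63. BCL3 was also not called with upper-quartile factors (adjusted p 0.0515), library size scaling (0.0574) or limma-voom (0.0516). RELA, the NF-kB subunit, had a log2 change of 0.50 and was not called (adjusted p 0.111).

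Genes that act on the PD-L1 and CD47 proteins went both ways. Of 14, 4 were called lower and 2 higher, beside 10.6% and 6.75% of all tested genes. The median log2 change was -0.10, beside 0.01 over all tested genes. CMTM6, whose product keeps PD-L1 at the cell surface, fell from 102 ± 7.81 to 65.7 ± 0.147 CPM (SD, n = 2), and its log2 change was -0.64 (adjusted p 0.0378). Scaling by total library size alone ended this call (adjusted p 0.0536). Its relative CMTM4, which can take the same role, rose from 106 ± 30.5 to 236 ± 5.64 CPM (SD, n = 2), and its log2 change was 1.16 (adjusted p 0.0239). CMTM6 lost its call when DMSO replicate 2 or either ACBI1 library was left out, and CMTM4 when either ACBI1 library was. STT3A, a subunit of the enzyme that glycosylates PD-L1, fell by 1.26 on the log2 scale (adjusted p 0.0146), with no call without ACBI1 replicate 1. QPCTL, the enzyme that modifies CD47 so that SIRPA binds it, was at 45.1 ± 2.77 and 46.2 ± 9.01 CPM (SD, n = 2) and was not called (adjusted p 0.922), while the related QPCT fell by 2.67 on the log2 scale (adjusted p 0.00497). STUB1, a ubiquitin ligase, was the other gene called higher, by 0.67 on the log2 scale (adjusted p 0.0365), and lost its call with any 1 library left out. B3GNT3, which extends sugar chains on PD-L1, had a log2 change of -2.01 (adjusted p 0.0452) on 6 to 31 counts per library, a call that DESeq2 (adjusted p 0.104) and limma-voom (adjusted p 0.0527) did not make and that each left-out library ended. The 6 calls of this list became 3 without DMSO replicate 2, 1 without ACBI1 replicate 1 and 2 without ACBI1 replicate 2.

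Of 9 other adhesion ligand genes for lymphocytes, 7 were tested, with 2 called lower and 1 higher. VCAM1 had 439 and 161 counts with DMSO and 0 in both ACBI1 libraries, at least 83.4-fold lower against a floor of 3 counts per library (adjusted p 0.00636). From DMSO replicate 2 alone, that limit was at least 48.9-fold. ICAM1, the ligand of the integrin LFA-1, fell from 186 ± 42.1 to 10.6 ± 0.408 CPM (SD, n = 2), and its log2 change was -4.13 (adjusted p 0.00141). ICAM5 rose from 8.06 ± 0.530 to 18.2 ± 0.834 CPM (SD, n = 2), and its log2 change was 1.18 (adjusted p 0.0156), with no call without either ACBI1 library. The remaining 4 tested genes were not called, and CD48 and CD99 were listed at 0 counts. Reads with several alignments were given to no gene, so these zeros do not show that either gene was silent. Over the 95 genes of these lists and the degrader's targets, 74 were tested, of which 25 were called lower and 4 higher, beside 10.6% and 6.75% of all tested genes. The lists were chosen with earlier results known, so nothing particular to them follows from this. The 29 calls became 12 without ACBI1 replicate 1 and 17 without ACBI1 replicate 2.

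**Figure D4:**
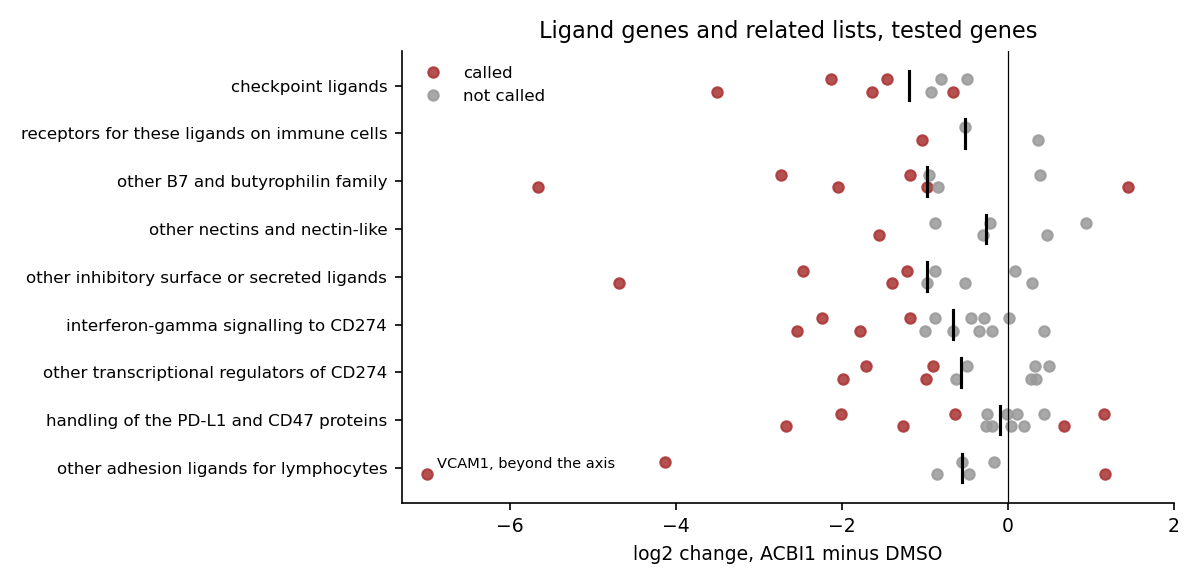
Fitted log2 change (ACBI1 minus DMSO) of every tested gene in the ligand set and 8 related lists, red where called and grey where not, with a black line at each list's median. The ligand genes lie wholly below 0, with a median of -1.19, and the list for protein handling is centred near 0; VCAM1, at 0 counts with ACBI1, is drawn at the edge of the axis.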

How the data were processed

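RNA-seq read counts from 4 libraries of H1792 cells were used, 2 with DMSO and 2 with ACBI1, grouped and numbered from the sample titles. The deposited values are raw counts per gene symbol. The submitters' processing notes name TopHat2 2.1.1, HTSeq 0.11.0 and hg38; annotation, settings and strand use are not given in the sources used here, so reads of antisense or overlapping genes may be misassigned. Lines for reads given to no gene (13.9% to 15.4% of reads listed) were left out.

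Genes were filtered with filterByExpr in edgeR 4.0.16 (R 4.3.3; minimum count 10, minimum total 15), scaled by TMM and tested with edgeR's quasi-likelihood test (two-sided, Benjamini-Hochberg, threshold 0.05), without a replicate block. CPM use TMM-scaled library sizes. Interval bounds are 95%, from the SE of the fit. Counts and floors carry counting error only. Lengths and positions came from GENCODE 29 (GRCh38), matched by symbol for 36501 features holding 97.2% to 97.5% of counts. Alternatives were other scalings, filters, tools (DESeq2 1.42.0, limma-voom 3.58.1), a stricter threshold, the block and each library left out. Scripts were tested on simulated data. There the edgeR fit recovered 22.4% of genes given a log2 change of size 1 and 89.6% of those given size 2. A gene without a call can therefore still have changed. Every simulated gene had the same dispersion, a measure of spread between libraries, and 67 of 19159 genes were changed at each of these sizes. The rates may differ in the real data.

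The ligand genes and context lists were chosen with earlier results of these data known. All 10 ligand genes were named, with at most 4 called genes per list by size of change, IRF1, JAK2, CMTM6, QPCTL, the degrader's targets and the 3 profiles closest to CD274. One gene that the rule also names is not reported here. Other named genes were chosen after their values were seen.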

Additional observations from a re-analysis of the deposited data

How the results depend on the processing

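No ligand gene changed direction: all 8 tested genes, or those left by the filter, had negative log2 changes under every scaling, filter, tool and left-out library that was run. The number called over all genes was 5518 with every gene with a count kept and 783 at a threshold of 0.01, with 2584, 4292, 1379 and 1807 calls in the fits that left out a library (range 1379 to 4292). Among the ligand genes 3 were called when a mean of 5 CPM or more was required, a filter that removes CD274, PDCD1LG2 and LGALS9, 2 at a threshold of 0.01 and 3 to 5 with a library left out. In the context lists 12 were called at 0.01 and 12 to 34 with a library left out. PVR was called lower with every gene with a count kept (-0.81) and with DESeq2 (-0.80), and ranged from -1.10 to -0.41 with a library left out. CD47 was not called under library size only (-0.57) and ranged from -0.79 to -0.53, and LGALS9 from -2.49 to -1.83. Among the genes named here, the sign reversed, with no call on either side, for QPCTL (-0.024 without DMSO replicate 1 and -0.19 without ACBI1 replicate 2, range -0.19 to 0.23) and PBRM1 (-0.041 without DMSO replicate 2, range -0.041 to 0.25). With the longest transcript as length, DMSO levels were 2.32 TPM for PDCD1LG2, 32.1 for CD47 and 1.89 for LGALS9. The cause was not tested.

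Replicate numbers are shared between the groups, but the labels do not say that they mark a batch. Same-numbered libraries deviated together from their group means (correlation 0.52 over genes, which are not independent). With the replicate block, 7909 genes were called in all, 46 in the context lists and all 8 tested ligand genes, each lower, CD274 at -0.91, CD276 at -0.49 and PVR at -0.76. In fits with a group of 1 library, that library is assumed to vary like the others. VTCN1 and HHLA2 had no fit in the main analysis and so no comparison. At 0 or 1 count per library, both were under the filter on low counts. The alternatives for STUB1, BTN3A1, BTN2A1, BCAM, TOMM40 and CEACAM19, and the bound of VCAM1 from 1 DMSO library, were added after seeing the data.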
